A study of Rattus norvegicus with 2 samples.

Results

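Long non-coding RNAs (lncRNAs) that are spliced and whose listed coordinates span 10 to 50 kb numbered 1854 of the 18361 lncRNA rows (10.1%) in the myocardium of spontaneously hypertensive rats. Among the rows listed with reads in at least 1 library, they were chosen by geometry and not by any measured level. A row counted as spliced where its end minus its start exceeded its listed length by more than 5 bases, and its end minus start had to be 10000 or more and below 50000. One library came from a rat or rats dosed into the stomach with KXH, which the design text gives as the high dose (9.6 g/kg) of KXF, and the series title names the Jiangya Kangxian Formula. The other came from a rat or rats given distilled water, and both treatments lasted 12 weeks. Both groups are of the same hypertensive strain, no normotensive strain is among the samples analysed here, and the labels give neither the age nor the number of animals per library. With 1 library per group there was no replicate error and no test between treatments. "Higher" and "lower" below describe these 2 libraries, and every interval is a 95% exact Clopper-Pearson interval that covers counting error only.

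Spliced lncRNAs are transcribed from long stretches of the genome, and their introns are removed, so that the mature RNA is much shorter than the locus it comes from. Some act in the nucleus on nearby chromatin, others in the cytoplasm on messenger RNAs or microRNAs, and for most no function is known. In heart muscle, lncRNAs are known for tissue-restricted expression and for overlapping or lying beside genes of the contractile apparatus. One gene often yields several alternatively spliced lncRNAs that share exons.

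The rows carry identifiers beginning NONRATT, the form that the NONCODE database uses for rat transcripts, with no gene symbol. None of the member identifiers (0) occurred among the symbols and synonyms of the RefSeq table, so none of the 49 well-known lncRNA names listed for lookup could be matched. No function is therefore given for single members. The submitters' processing notes name the rn6 assembly and the tables name none. Coordinates are those of the tables, and strand, exon positions, sequences and overlaps with protein-coding genes were not analysed here.

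The lncRNA tables summed to 2.93 M reads for KXH and 3.18 M for water (M, 1000000), and the protein-coding tables to 14.06 M and 15.10 M. All 10 cardiomyocyte markers were listed in both libraries, at 598 to 18238 RPKM (reads per kilobase of listed length and per 1000000 reads of the table) in KXH and 547 to 17406 in water. They summed to 53456 RPKM in KXH and 49816 in water, with 7 of 10 higher in KXH and 3 lower. The skeletal muscle list summed to 1146 RPKM in KXH and 1185 in water, with 5 of 5 listed genes lower in KXH. Nearly all of it was Ckm (1144 and 1183), a creatine kinase that heart muscle also expresses. Tnnt3 stood at 1.51 and 1.72 RPKM, Myh1, Myh2 and Actn3 at or below 0.139, and Myh4 was listed in neither. Summed over each list, red cell markers were lower in the KXH library (2265 against 3331 RPKM, 5 of 5 lower), nearly all of it Hbb (2234 against 3283). Smooth muscle markers were lower as well (56.8 against 79.3, 4 of 4), as were endothelial markers (366 against 414, 6 of 6). Fibroblast markers summed to 915 against 818 RPKM, with 7 of 8 higher, macrophage markers to 40.4 against 45.6 and liver markers, mostly Ttr, to 25.2 against 29.9. In bulk tissue, fewer cells of a type and less RNA per cell cannot be told apart, and the part of these differences in the lncRNA values below was not tested.

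The members were chosen for long spans, so a listed length far below the span follows in part from that choice. Their spans had a median of 18334 bases, with quartiles of 13297 and 26697 and extremes of 10003 and 49930. Their listed lengths, the exons joined, had a median of 637 bases and ran from 205 to 12659. The listed length was thus a median of 3.30% of the span, between 0.486% and 72.3%. At the lower bound, the member of smallest span was NONRATT028975.2 (chr8:116522143-116532146), at 71.4 RPKM in KXH and 71.1 in water. Just outside it lay NONRATT021643.2 (chr4:125724878-125734871, span 9993), at 27.3 and 27.5 RPKM. At the upper bound, NONRATT020254.2 (chr4:42202838-42252768, span 49930) stood at 55.7 and 57.2 RPKM. Just outside, NONRATT024391.2 (chr6:96178005-96228022, span 50017) stood at 24.5 and 18.5 RPKM. All 4 of these rows had a counting interval that includes 1, so no difference between the libraries was detectable in them.

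Members were found on every chromosome from 1 to 20, on X and Y, and on 1 unplaced contig. Chromosome 1 held the most, 226, and chromosome 12 held 26, which were 4.67% of its lncRNA rows against 13.9% on chromosome 11. Levels showed little relation to span. Across the 1854 members, mean RPKM had a Spearman coefficient of 0.0030 with span and 0.016 with listed length, given as descriptions since rows share libraries and loci. Members spanning 10 to 15 kb had a median of 9.96 RPKM in KXH and 9.72 in water, and those spanning 30 to 50 kb had 8.85 and 9.82. By length, the 130 members of 1600 bases or more had a median of 17.1 RPKM in KXH and 17.4 in water. The 1000 members of 400 to 800 bases had the lowest medians, 8.96 and 9.86. Those of 200 to 400 bases had 10.9 and 10.9, and those of 800 to 1600 bases 11.7 and 11.2. Identifiers of version 1, by the digit after the point, made up 9.33% of the members and 4.30% of all lncRNA rows.

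The members drew a smaller share of reads than of rows. In the KXH library they took 197157 reads, 6.73% of its lncRNA reads (6.70% to 6.76%). In the water library they took 215249, or 6.78% (6.75% to 6.80%). Summed over all members, the ratio of KXH over water was 0.993 (0.987 to 0.9995). Rows spliced over less than 10 kb took 36.5% and 36.1% of the reads with 35.6% of the rows. Those spliced over 50 kb or more took 2.77% and 2.92% with 2.67% of the rows. Single-exon rows under 1 kb also took less than their part, 21.8% and 21.9% with 39.1% of the rows. Single-exon rows of 1 kb or longer took 32.3% in both libraries with 12.6% of the rows. The members' smaller share did not go with a median level below that of all lncRNAs. Of rows averaging 0.5 RPKM or more, members had medians of 50 reads, 12.7 RPKM in KXH and 13.4 in water. All lncRNAs so filtered had medians of 46 reads, 11.3 and 12.1 RPKM. Single-exon rows of 1 kb or longer had the highest medians, 23.2 and 24.5 RPKM. At least 100 reads were found for 33.2% of members and 32.0% of all lncRNA rows. These values are set side by side without a test.

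Reads were concentrated in few members. The 10 with most reads held 22.4% of all member reads and the 100 with most held 55.0%. At least 100 reads in sum over both libraries were found for 616 members, which together held 92.5% of the reads, and 1238 members (66.8%) had fewer. In the KXH library the median member stood at 9.72 RPKM, with quartiles of 1.91 and 40.2. The water library gave a median of 10.4 RPKM, with quartiles of 2.04 and 41.2. Reads in both libraries were listed for 1607 members. Over the 616 with at least 100 reads, Pearson's r between the log2 levels of the libraries was 0.979 and Spearman's rho 0.971, across rows that share libraries and loci and are not replicates.

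**Figure D1:**
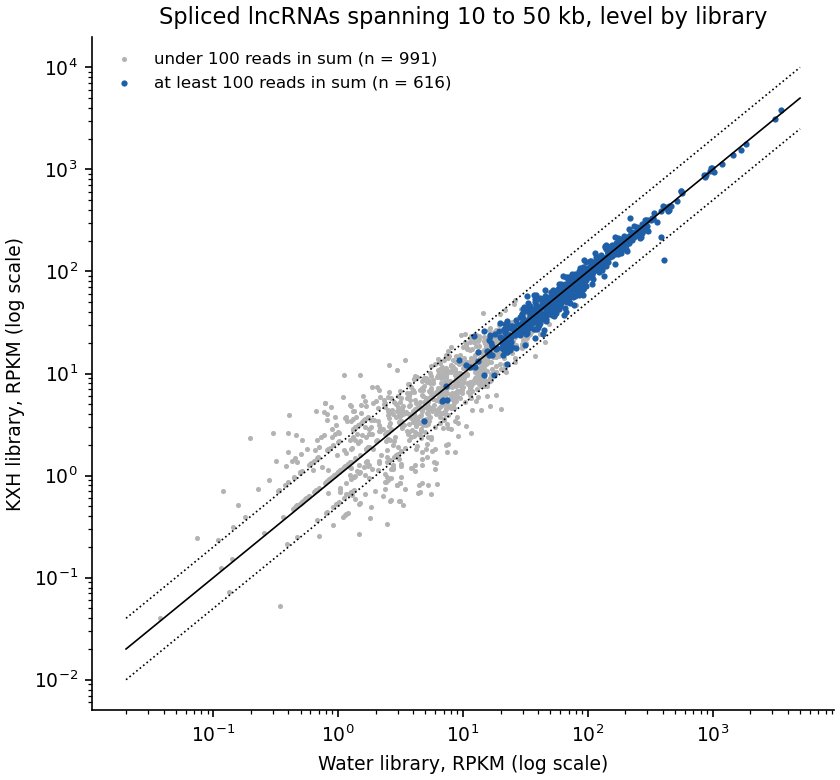
Level of each member with reads in both libraries, in RPKM on log axes, water on the horizontal and KXH on the vertical axis. The solid line marks equal levels and the dotted lines 2-fold. The 616 members with at least 100 reads lie along the line with 1 well below it. The 991 with fewer reads scatter more widely, some of them past the dotted lines.

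The most abundant members were at nearly the same level in both libraries. The member with most reads, NONRATT008252.2 (chr13:52663055-52674707, length 894), stood at 3842 RPKM in KXH and 3543 in water, a ratio of 1.08 (1.05 to 1.11; 10060 and 10062 reads). It alone held 5.10% of the member reads in KXH and 4.67% in water. NONRATT016243.2 (chr2:96593185-96608200) followed at 877 and 857 RPKM, a ratio of 1.02 (0.995 to 1.05). The next member in reads, NONRATT028571.2 (chr8:58166990-58178927), was at 1027 and 994 RPKM, with a KXH over water ratio of 1.03 (0.991 to 1.08). Of these 3, the interval lay off 1 for NONRATT008252.2 only.

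Per length, the second most abundant of the 12 members with most reads was NONRATT024884.2 (chr6:27578447-27589496), 274 bases long, at 3131 and 3176 RPKM. NONRATT016197.2 (chr2:70168213-70186282) was at 1779 and 1843 RPKM. NONRATT029842.2 (chr9:19520705-19532230) was at 1132 and 1194 RPKM, with 77.3% of its length covered by reads in KXH and 99.4% in water. These 3 members were short, at 274, 575 and 537 bases, and their intervals all include 1, from 0.889 at the lowest bound to 1.04 at the highest. NONRATT022245.2 (chr5:61690092-61712052) was at 959 and 949 RPKM, NONRATT024841.2 (chr6:23550586-23580776) at 875 and 884, and NONRATT016149.2 (chr2:54714202-54741555) at 847 and 860. None of these showed a difference detectable at this depth.

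The 3 longest RNAs among the 12 stood at lower levels per length. NONRATT022294.2 (chr5:74956511-74985789, length 4463) was at 260 and 250 RPKM, with a KXH over water ratio of 1.04 (0.993 to 1.09). NONRATT025773.2 (chr7:42330953-42351053, length 5190) was at 106 and 120 RPKM, 1.13-fold lower in KXH (1.06 to 1.21), the one of the 12 whose interval lay below 1. NONRATT034050.1 (chr3:111397051-111410587, length 7706) was at 126 and 132 RPKM, with a KXH over water ratio of 0.954 (0.907 to 1.004). Reads covered only 49.3% and 51.8% of its length. Of the 12, the interval included 1 for 10.

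The spread of ratios followed the number of reads. Of the 1685 members whose mean reached 0.5 RPKM, 143 were at least 2-fold higher in KXH on the log2(RPKM + 0.1) scale, where 8.18% of all 17071 lncRNAs so filtered were. A further 165 were at least 2-fold lower, beside 10.9% of all lncRNAs. As shares of the members these are 8.49% and 9.79%, close to the background. Of these 308 members, 302 had fewer than 50 reads in sum and 215 fewer than 10, with a median of 6 reads. The counting interval included 1 for all but 47 of them. Among the 616 members with at least 100 reads, 0 were 2-fold higher (0.153% of the 5870 lncRNAs with that many reads) and 1 was 2-fold lower (0.256%).

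**Figure D2:**
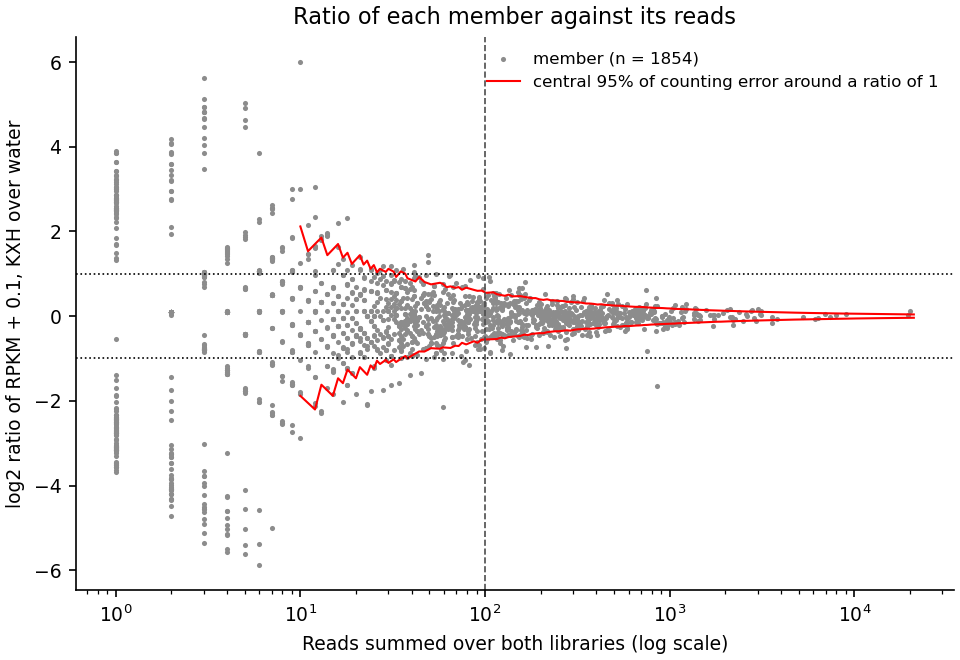
log2 ratio of RPKM + 0.1, KXH over water, of each of the 1854 members against its reads in both libraries, on a log axis. Red lines bound the central 95% of counting error around a ratio of 1, dotted lines mark 2-fold, and the dashed line 100 reads; right of it only 1 member, at 850 reads, lies beyond 2-fold.

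Counting intervals off 1 were also about as frequent as among lncRNAs at large. They lay above 1 for 82 of the 1685 members, beside 4.97% of all lncRNAs, and below 1 for 95, beside 6.94%. The members' shares were 4.87% and 5.64%. With at least 100 reads, the interval lay above 1 for 48 of 616 members (7.79%, beside 8.59% of all) and below 1 for 57 (9.25%, beside 11.5%). The 48 higher members had a median ratio of 1.24, from 1.08 to 1.91. The 57 lower members were a median of 1.354-fold lower, from 1.08-fold to 3.14-fold. For the other 511 no difference was detectable at this depth. The median log2 ratio was -0.019 over the 616 members and -0.021 over all 5870 lncRNAs, with interquartile ranges of 0.29 and 0.32. Within 1.2-fold lay 440 of the 616 and within 1.5-fold 596.

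The precision at each depth sets what could be seen. With at least 10 but fewer than 20 reads in sum, the typical interval reached 3.54-fold to each side of the ratio. It reached 1.43-fold with at least 100 but fewer than 200 reads and 1.15-fold with 500 or more. The robust standard deviation of the log2 ratios fell from 0.93 to 0.38 and 0.15 over these classes, where the median standard error of counting was 0.80, 0.25 and 0.10. The spread between rows lay above the counting error in each of these classes. For all lncRNA rows the robust standard deviations were 0.97, 0.33 and 0.16, values near those of the members.

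**Figure D3:**
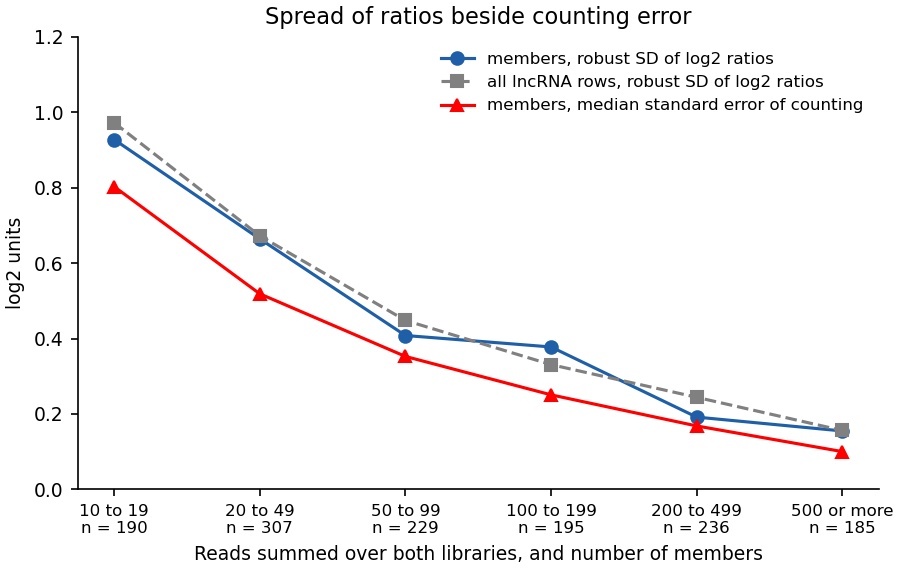
Spread of log2 ratios by class of reads summed over both libraries: robust standard deviation (interquartile range over that of a normal curve) of the members (circles) and of all lncRNA rows (squares), and the members' median standard error of counting (triangles). All 3 lines fall with reads, and at 500 or more reads the members' spread of 0.15 exceeds the counting error of 0.10.

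Span and length showed little relation to the ratio. Across the 616 members with at least 100 reads the Spearman coefficient of the log2 ratio was -0.032 with span and 0.037 with length. The median log2 ratio was -0.003 in members spanning 10 to 15 kb (n = 210), -0.020 at 15 to 20 kb (n = 125), -0.029 at 20 to 30 kb (n = 175) and -0.004 at 30 to 50 kb (n = 106). By length, the 68 members under 400 bases had a median of -0.079 and the 76 of 1600 bases or more one of 0.018. By chromosome, the summed ratio ranged from 0.911 on X (0.858 to 0.967) to 1.06 on chromosome 11 (1.01 to 1.12), leaving out Y and the contig. The value for X rested on 2010 and 2392 reads and was 0.890 (0.833 to 0.950) without its member with most reads, NONRATT030591.2. That for chromosome 11 became 1.054 (0.9999 to 1.11) without NONRATT006496.2, its member with most reads. On chromosome 13 the ratio of 1.05 (1.03 to 1.07) became 1.01 (0.979 to 1.04) without NONRATT008252.2. On chromosome 20 the ratio of 0.937 (0.896 to 0.980) was 0.908 (0.860 to 0.959) without its member with most reads, NONRATT017232.2, and 1.05 (1.003 to 1.10) without NONRATT017141.2, described next.

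The member farthest apart, and the one past 2-fold at depth, was NONRATT017141.2 (chr20:5377892-5418013, length 512). It had 193 reads in KXH and 657 in water. Its level was 129 RPKM in KXH and 404 in water, 3.14-fold lower (2.67 to 3.70). Reads covered 53.5% of its length in KXH and 84.4% in water. The next lower member by ratio was 1.86-fold lower, so NONRATT017141.2 stood well apart from the rest.

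Its difference went with an opposite one in an overlapping row. NONRATT017137.2 (chr20:5354224-5418017, length 529) spans more than 50 kb and so is no member, and it ends 4 bases from NONRATT017141.2. It stood at 1204 RPKM in KXH and 732 in water, 1.65-fold higher (1.53 to 1.77; 1866 and 1230 reads). Of the reads on this pair, NONRATT017141.2 held 9.37% in KXH (8.15% to 10.7%) and 34.8% in water (32.7% to 37.0%). Summed over the pair, the ratio was 1.18 (1.11 to 1.26), and over all 5 lncRNA rows that share bases with NONRATT017141.2, itself included, 1.17 (1.10 to 1.24). NONRATT017137.2 holds most of the reads in these sums and decides their direction. The other 3 overlapping rows, all of few reads, had ratios below 1: NONRATT017132.2 with 4 and 20 reads (0.217, 0.0539 to 0.648), NONRATT017581.2 with 5 and 14 (0.387, 0.109 to 1.14) and NONRATT017142.2 with 7 and 9 (0.844, 0.267 to 2.55). How the submitters assigned reads between overlapping rows is not given in the sources used here, and whether the split of reads reflects that step was not tested.

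Within 50 kb of that member the other lncRNA rows with at least 100 reads did not move as one. NONRATT017582.2 (chr20:5432559-5433591) was at 106 RPKM in KXH and 164 in water, a ratio of 0.645 (0.548 to 0.759). NONRATT017145.2 (chr20:5425067-5425509) was at 27.0 and 50.4 RPKM, with a KXH over water ratio of 0.535 (0.346 to 0.812). NONRATT017140.2, which ends 282 bases before the member, was at 925 and 878 RPKM, with a KXH over water ratio of 1.05 (0.978 to 1.13). The remaining 3 rows besides NONRATT017137.2 had intervals that include 1.

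NONRATT018662.2 (chr3:136396438-136419212, length 402) had the most reads after it among the 8 lowest ratios. It had 258 reads in KXH and 496 in water, at 219 and 388 RPKM, 1.77-fold lower (1.52 to 2.07). Coverage of its length was 97.0% and 91.5%. No other lncRNA row shared bases with it, and none within 50 kb had 100 reads, so no neighbouring row showed whether the locus moved.

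NONRATT010686.2 (chr15:105771467-105795698, length 1492) lay in a locus of 3 members. It had 97 and 179 reads and stood at 22.2 RPKM in KXH and 37.8 in water, 1.70-fold lower (1.32 to 2.20). Both single-exon rows inside its span were lower too, NONRATT010687.2 at 22.5 against 52.6 RPKM (ratio 0.428, 0.293 to 0.614) and NONRATT010688.2 at 17.1 against 35.4 (0.482, 0.336 to 0.683). The member NONRATT010684.2 (chr15:105756785-105795860), whose span encloses NONRATT010686.2, was level at 96.5 and 95.3 RPKM (1.01, 0.867 to 1.18). The third member, NONRATT010685.2, was at 7.07 and 11.4 RPKM with an interval of 0.339 to 1.10.

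The other members among the 8 lowest had 107 to 166 reads. NONRATT030421.2 (chrX:10413676-10458126) was at 9.57 RPKM in KXH and 17.8 in water, 1.86-fold lower (1.29 to 2.73). NONRATT005738.2 (chr10:66816952-66842737) was at 24.2 and 44.0 RPKM and NONRATT001691.2 (chr1:255066994-255086235) at 12.4 and 22.6, each 1.82-fold lower (1.201 to 2.80) with 36 and 71 reads. NONRATT004041.2 (chr10:764478-776899) was at 37.2 and 64.5 RPKM, 1.74-fold lower (1.19 to 2.58). NONRATT019582.2 (chr3:107697408-107745721) was at 26.6 and 44.5 RPKM, 1.67-fold lower (1.21 to 2.34). All 8 intervals lay below 1, although these were the lowest of 616 and their ranks were chosen from the same reads.

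Of the overlapping or close rows named next, none had an interval below 1, and that of NONRATT004036.2 lay above it. NONRATT004600.2, inside the span of NONRATT005738.2, had 11 reads in KXH and 8 in water (ratio 1.49, 0.546 to 4.27). NONRATT001692.2, which shares its end coordinate with NONRATT001691.2, had 48 and 38 reads (ratio 1.37, 0.877 to 2.15). NONRATT019577.2, which overlaps the start of NONRATT019582.2, was at 69.1 and 69.5 RPKM (0.995, 0.862 to 1.15). Beside NONRATT004041.2 lay 2 members that share bases with each other. The nearer, NONRATT004039.2 (chr10:733886-760700), 3778 bases away, was at 18.1 RPKM in KXH and 24.7 in water (ratio 0.734, 0.489 to 1.09). The farther, NONRATT004036.2 (chr10:730271-751058), 13420 bases away, was at 63.2 and 50.9 RPKM, 1.24-fold higher (1.04 to 1.49).

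At the other end, the 8 highest members reached 1.47-fold to 1.91-fold. NONRATT021199.2 (chr4:27732636-27744144, length 986) had 67 reads in KXH and 38 in water, at 23.2 and 12.1 RPKM, 1.91-fold higher (1.27 to 2.93). NONRATT009218.2 (chr14:10792005-10811626) was at 26.2 and 14.7 RPKM, 1.79-fold higher (1.19 to 2.72). NONRATT019453.2 (chr3:79909888-79937076) was at 57.4 and 32.7 RPKM, 1.76-fold higher (1.27 to 2.44). Each had at most 165 reads, so the lower bounds lay at 1.19 to 1.27. The 3 rows that share bases with NONRATT021199.2 did not follow it, with ratios of 0.620, 0.868 and 1.13 and intervals that include 1.

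The best counted of the 8 was NONRATT026393.2 (chr7:3042592-3053254, length 444), with 437 reads in KXH and 307 in water. It stood at 336 and 218 RPKM, 1.54-fold higher (1.33 to 1.79). Reads covered 43.5% of its length in both libraries, so its reads fell on the same share of the RNA in each. No other lncRNA row shared bases with it.

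NONRATT004585.2 (chr10:64388281-64398295) was at 59.2 and 37.2 RPKM, 1.59-fold higher (1.15 to 2.22). Its neighbour NONRATT004586.2, 786 bases away, was higher too at 68.9 and 51.9 RPKM (1.33, 1.02 to 1.73). NONRATT022550.2 (chr5:136406081-136447779) was at 31.2 and 19.8 RPKM, 1.57-fold higher (1.13 to 2.21), and NONRATT022776.2 (chr5:156416281-156461381) at 59.1 and 38.7, 1.53-fold higher (1.07 to 2.19). The rows that overlap these last 2 had ratios of 0.986 to 1.81, all with intervals that include 1.

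**Figure D4:**
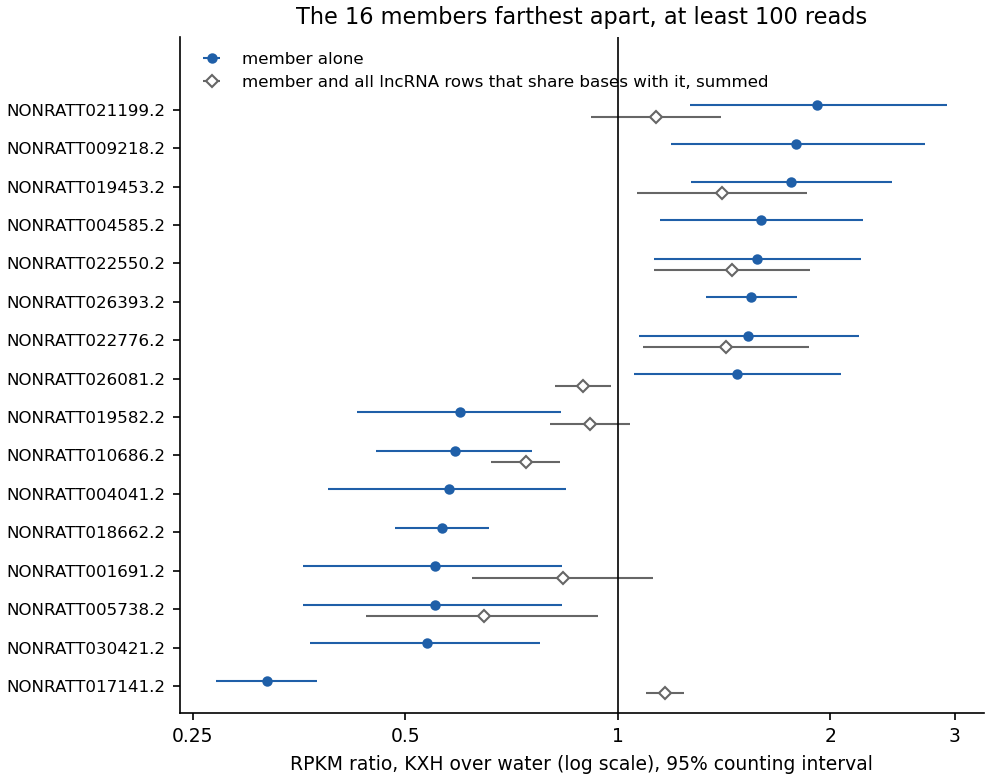
RPKM ratio of KXH over water, on a log axis with 95% counting intervals, of the 8 lowest and 8 highest members with at least 100 reads (filled circles). Open diamonds give the ratio when the member is summed with all lncRNA rows that share bases with it, for the 10 members that have any; for NONRATT017141.2 and NONRATT026081.2 the diamond lies on the other side of 1.

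Shared loci were common among the members. Joining members whose coordinates share at least 1 base gave 1632 loci, of which 1461 held a single member. The other 171 loci held 393 members (21.2%): 137 had 2, 23 had 3, 6 had 4, 4 had 5 and 1 had 6. Counting lncRNA rows of every kind, 843 members shared bases with another row and 1011 did not. Rows spliced over less than 10 kb overlapped 317 members, single-exon rows under 1 kb overlapped 285, rows spliced over 50 kb or more 75, and single-exon rows of 1 kb or longer 63. Members in shared loci had a median of 38 reads and those alone 40.

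In the 137 shared loci of 2 members, the row with most reads holds no less than the other by definition. The shares below are therefore descriptions. The row with most reads held a median of 77.8% of its locus' member reads, and more than 90% in 41 of the 171 loci. The locus of 6 members, on chromosome 16, was led by NONRATT011487.2 (chr16:36374727-36391165) at 82.9 RPKM in KXH and 96.1 in water (ratio 0.863, 0.688 to 1.08). The member with fewest reads there was NONRATT011484.2 (chr16:36374695-36410849), with 2 and 5 reads. All 6 members of this locus were lower in KXH and all 6 intervals include 1.

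Of the 4 loci with 5 members, the ones with most KXH reads lay on chromosomes 14 and 1. On chromosome 14, NONRATT010039.2 (chr14:81658401-81679657, length 2905) was at 93.3 and 84.4 RPKM, with a KXH over water ratio of 1.11 (1.0002 to 1.22). The member with fewest reads there, NONRATT010043.2, had 2 and 1 reads. On chromosome 1, NONRATT003128.2 (chr1:195077106-195096710) was at 181 and 188 RPKM (0.964, 0.852 to 1.09), and the last member, NONRATT003134.2, had 1 and 4 reads. Between them in reads, NONRATT010042.2 of the locus on chromosome 14 had 9 reads in KXH and 2 in water, an interval of 1.01 to 46.4. At so few reads the size of a difference is not set.

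Where 2 or more members of a locus had at least 100 reads, they could be compared with each other. This held for 26 loci. The difference between the highest and the lowest log2 ratio in a locus had a median of 0.25 and a maximum of 0.79. In 13 of the 26 the members lay on opposite sides of 0, and in 4 their counting intervals did not overlap. Intervals of members in the other 22 loci overlapped, so no difference within them was detectable in this way.

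The 4 loci were on chromosomes 7, 15, 18 and 2, the one on chromosome 15 being that of NONRATT010686.2 above. On chromosome 7, NONRATT026082.2 (chr7:119119090-119156377) was at 303 RPKM in KXH and 355 in water (0.854, 0.775 to 0.940). NONRATT026081.2 (chr7:119119063-119156376), whose ends lie 27 and 1 bases away, was at 48.9 and 33.1 RPKM (1.47, 1.06 to 2.07). On chromosome 18, NONRATT013322.2 (chr18:28361228-28371529) was at 150 and 185 RPKM (0.811, 0.698 to 0.941), and NONRATT013323.2 (chr18:28361284-28381427) at 209 and 184 (1.14, 1.004 to 1.28). On chromosome 2, NONRATT015790.2 (chr2:240626381-240654728) was at 58.4 and 73.8 RPKM (0.791, 0.655 to 0.954), and NONRATT015792.2 (chr2:240626706-240655863) at 154 and 146 (1.05, 0.963 to 1.15).

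Summed over both rows of a pair of members, the ratio must lie between those of its rows. That it lay above the lower one is therefore no result. The summed ratio was 0.893 (0.814 to 0.979) for the pair on chromosome 7 and 0.867 (0.760 to 0.988) for NONRATT010686.2 with NONRATT010684.2. It was 0.990 (0.900 to 1.09) on chromosome 18 and 0.998 (0.920 to 1.08) on chromosome 2. The share of the pair's reads on NONRATT013322.2 was 36.8% in KXH (33.6% to 40.2%) and 45.0% in water (41.7% to 48.2%). These pairs were chosen for lying apart, so their values are descriptions.

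**Figure D5:**
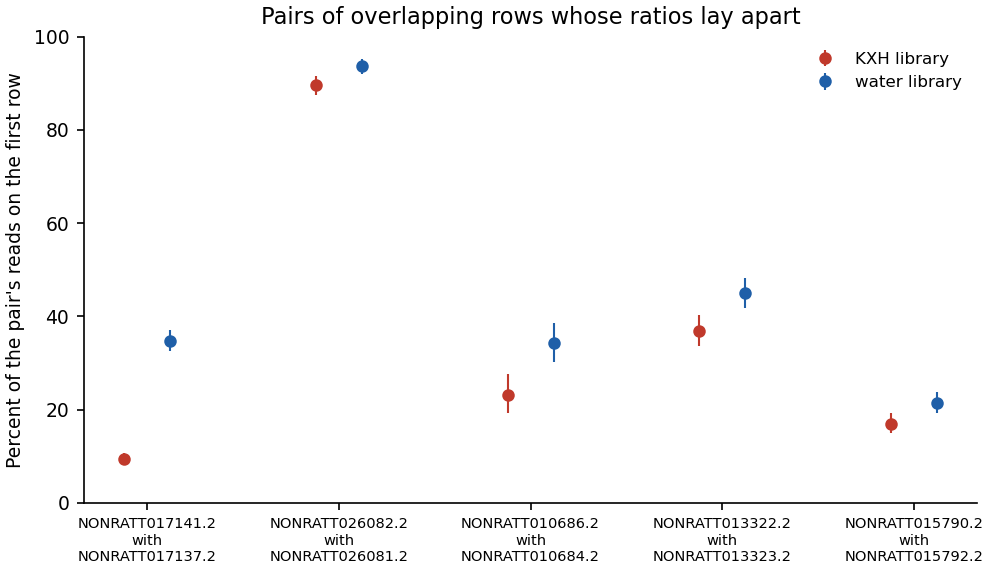
Percent of the reads of 2 overlapping rows that fell on the first-named row, in the KXH (red) and water (blue) library, with 95% exact binomial intervals. The first pair joins NONRATT017141.2 with a row spanning over 50 kb, and the other 4 are pairs of members; the first-named row is the one with the lower ratio, so its KXH share lies below the water share in all 5, and it is 9.37% against 34.8% in the first.

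Reads in 1 library only were found for 247 members, 94 in KXH only and 153 in water only. Of the 1854 members, 1701 were listed in KXH and 1760 in water. Of all 18361 lncRNA rows, 17076 and 17486 were, so fewer rows were listed in KXH there too. Most of the 247 rested on a single read (56 and 79), and only 27 had more than 3. With most reads was NONRATT002829.2 (chr1:143171458-143183969), with 10 reads in KXH (6.31 RPKM) and 0 in water. Scaled to the totals, its reads were 3.62-fold over a floor of 3 reads in the water library. That figure leaves out the error of the observed reads. Its counting interval, which covers that error too, began at 2.43-fold. In the other direction NONRATT014986.2 (chr2:38120585-38133923) had 7 reads in water (3.13 RPKM) and 0 in KXH. Its reads were 2.15-fold over a floor of 3 reads in KXH, with an interval from 1.33-fold lower. NONRATT032542.1 (chr19:52991283-53010509) with 6 reads in KXH was 2.17-fold over the floor, with an interval from 1.28-fold higher. NONRATT006670.2 (chr11:75434370-75477196) and NONRATT011953.2 (chr16:36244557-36271576) with 6 reads each in water were 1.84-fold over the floor, with intervals from 1.09-fold lower. NONRATT008850.2 (chr13:73790552-73813150) had 5 reads in KXH, 1.81-fold over the floor. Its interval began at 0.994 and so includes 1, and no difference was detectable. These rows were picked for their reads among the 247, so their values are descriptions. A count of 0 here means not detected at this depth.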

How the data were processed

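Per the labels' protocols, RNA was taken from frozen myocardium with Trizol, and a TruSeq kit (Illumina) turned total RNA into libraries. The deposited tables give unique read counts, listed length, percent of length covered (some values above 100) and RPKM, which the authors scaled to each table's own total (recomputed here to a relative tolerance of 1e-09). Rows absent from a table were taken as 0 reads. Per the submitters' processing notes, the tool list holds Bowtie 0.12.2 and the build list rn6, with no role given. Which program counted reads, whether it used strand and what it filtered is not given in the sources used here. If strand was ignored, a row and an antisense neighbour share their reads and cannot be told apart.

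Here the log2 ratio of RPKM + 0.1, KXH over water, was computed for all lncRNAs, keeping rows whose mean was 0.5 RPKM or more. Of the 1854 members 1685 passed. Because 0.5 RPKM can be 1 read, values for rows with at least 100 reads are given beside these. Fold values are RPKM ratios with nothing added. The depth of a row sets its interval, and, with no molecular identifiers, 2 reads may come from 1 molecule. No test between treatments was made. Named members are the 12 with most reads, the 8 highest and 8 lowest ratios with at least 100 reads, the members with most and fewest reads in the 3 loci with most members (ties by KXH reads), the rows nearest each bound of span, and up to 3 per library with reads in that library alone (ties by identifier). Neighbours, overlapping rows and pairs were chosen after values were seen. The members and lists were chosen with earlier results of these data known. The steps were tested on simulated data. Values were computed in Python 3.11.15 (pandas 2.3.3, numpy 2.4.6), intervals with scipy 1.17.1 and figures with matplotlib 3.10.9. The alternatives were other pseudocounts, filters, scalings, thresholds and counting by locus.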

Additional observations from a re-analysis of the deposited data

How the results depend on the processing

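With 1 library per group no value has a replicate check, and every count of members 2-fold apart depends on how rows of few reads are kept. Asking for at least 100 reads in place of a mean of at least 0.5 RPKM took the members 2-fold apart from 308 to 1 (higher 143 to 0, lower 165 to 1), and those with an interval off 1 from 177 to 105 (above 82 to 48, below 95 to 57), with 616 in place of 1685 members examined. With no filter 250 were 2-fold lower, and with a pseudocount of 1 RPKM 81 were 2-fold higher. At 1.5-fold, 541 members were apart (246 higher, 295 lower). With 99% intervals 64 lay off 1 (25 above, 39 below). For these alternatives the shares over all lncRNAs are not given here. Without the member with most reads, the members' share of reads was 6.39% in KXH and 6.46% in water. The other counts kept within 1.5 times under the alternatives run. Among these were 1 row for each locus and a span more than 200 bases over the length. Centring on the median lncRNA adds 0.021 to each log2 ratio, and gave 103 intervals above 1 and 83 below. The total of both tables gave 70 and 105. The median log2 ratio moved with the scaling, from -0.025 to -0.0040 on centring and to -0.037 with the total of both tables. Where loci had to share 0.5 of the shorter span, 373 in place of 393 members shared one.

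Of 42 named members, centring moved the interval of NONRATT016243.2, NONRATT028571.2, NONRATT022294.2 and NONRATT008850.2 off 1. The total of both tables moved that of NONRATT034050.1 off 1 (0.900 to 0.995) and that of NONRATT010039.2 onto 1 (0.992 to 1.21). Summing with overlapping rows, an alternative chosen after seeing the data, turned the log2 ratio of NONRATT017141.2 to 0.22 and that of NONRATT026081.2 to -0.16, where part of the sum is the other row's reads. For 3 of the 10 members so summed (NONRATT001691.2, NONRATT019582.2 and NONRATT021199.2) the interval then included 1. No paired analysis was possible because each group holds 1 library. With at least 100 but fewer than 200 reads, the typical interval reached 1.43-fold to each side.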

Other observations

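Among the 185 members with at least 500 reads, which held 68.1% of all member reads, the counting interval lay above 1 for 25, below 1 for 21 and included 1 for 139. Past 1.2-fold were 7 higher and 9 lower members. The same counts over all 1834 lncRNA rows of that depth are not given here, so these are no trait of the members. The robust standard deviation of the log2 ratios was 0.155 for the members and 0.156 for all rows of that depth. Besides those in the report, chosen after their values were seen, NONRATT014107.2 (chr19:24709904-24740461) was at 219 RPKM in KXH and 163 in water, 1.34-fold higher (1.17 to 1.54). NONRATT017203.2 (chr20:7417058-7427581) was at 125 and 96.2 RPKM, 1.30-fold higher (1.09 to 1.55). In the other direction, NONRATT029706.2 (chr9:111268938-111284875) was at 160 and 205 RPKM, 1.28-fold lower (1.12 to 1.47), and NONRATT011670.2 (chr16:83206558-83229145) at 57.6 and 73.8, 1.28-fold lower (1.08 to 1.52). None of these 4 has a replicate check.

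Coverage along the RNA differed between the libraries for some members. Of the 616 members with at least 100 reads, 22 differed by more than 20 percentage points in the share of length covered. The share of all lncRNAs that did so is not given here. The widest gap was in NONRATT019368.2 (chr3:57957203-57997854), covered over 55.0% in KXH and 99.4% in water, at 177 and 231 reads. The reverse held for NONRATT001871.2 (chr1:274575092-274611077), covered over 95.1% and 52.2%, at 190 and 153 reads. Coverage stayed under 50% in both libraries for 13 members, and was above 90% in both for 355. The best counted of the 13 was NONRATT024940.2 (chr6:43123984-43141479), with 654 and 771 reads on 32.2% and 32.3% of its 1885 bases.

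The 2 lncRNA rows on chromosome Y were both members and overlap each other. NONRATT034138.1 (chrY:80953-93030) had 9 reads in KXH and 12 in water, and NONRATT034137.1 (chrY:70663-92608) had 1 in each.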
